A study of Mus musculus with 18 samples.

Results

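The genes described here are the Hoxc and Hoxd genes of paralogue groups 1 to 9, which are 9 of the 37224 genes in the count table. They are Hoxc4, Hoxc5, Hoxc6, Hoxc8 and Hoxc9 of the Hoxc cluster and Hoxd1, Hoxd3, Hoxd8 and Hoxd9 of the Hoxd cluster. They were chosen by name, from their cluster and group number. RNA sequencing was done on 18 libraries from derivatives of mouse embryonic stem cells (strain C57BL/6), in 6 groups of 3. The study asked what Hoxb1, an anterior Hox transcription factor, does in neuromesodermal progenitors (NMPs), the cells that give rise to spinal cord and paraxial mesoderm, and in neural progenitors (NPs). NMPs were wild type or Hoxb1 null. NPs did or did not express Hoxb1, each with or without SAG, a Smoothened agonist that switches on hedgehog signalling.

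The 6 groups were wild-type NMPs, Hoxb1-null NMPs, NPs without Hoxb1 or SAG, NPs with Hoxb1 and doxycycline (DOX), NPs with SAG, and NPs with Hoxb1, DOX and SAG. DOX was given only to the NPs that express Hoxb1, so Hoxb1 and DOX cannot be told apart. All groups shared the strain and a differentiation from stem cells in culture. The sources used here do not give the number of lines or clones, nor whether the 3 libraries of a group were separate cultures. The p-values therefore measure only the spread between these libraries, which may be technical. The library numbers in the labels form separate ranges for NPs with SAG, NPs without SAG and NMPs, so SAG and library set cannot be told apart, whereas both Hoxb1 states lie within each range.

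Hox genes encode homeodomain transcription factors that give cells their position along the head-to-tail axis. Vertebrates carry them in 4 clusters, in which genes of low group number lie at the 3′ end and are switched on first and furthest forward, and genes of high group number follow later and further back. Hox proteins bind DNA together with Pbx and Meis cofactors, while retinoic acid, Wnt, Fgf and Cdx proteins open the clusters and Polycomb complexes keep them silent. In the nervous system, groups 1 to 4 mark the hindbrain, groups 4 to 8 the cervical and brachial spinal cord and group 9 the thoracic cord. The Hoxc proteins of groups 5, 6, 8 and 9 are known for setting motor neuron columns and pools.

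In the coordinates of the count table (mm10), all 9 genes lie on the plus strand. On chromosome 15 the Hoxc genes run from Hoxc9 (102976439 to 102985099) through Hoxc8 (102990622 to 102994267), Hoxc6 (102998257 to 103011881) and Hoxc5 (103013815 to 103017429) to Hoxc4 (103018936 to 103036843). On chromosome 2 the Hoxd genes run from Hoxd9 (74697680 to 74700208) through Hoxd8 (74704615 to 74707933) and Hoxd3 (74711929 to 74748274) to Hoxd1 (74762980 to 74765143). Summed exons cover 1863 bases in Hoxd1 and 5792 in Hoxd3, with the others between them. In the table, 1725 exon bases of Hoxd3 (29.8%) also belong to another gene on the same strand and 347 (5.99%) lie opposite its antisense RNA Hoxd3os1, and 449 of 2923 exon bases of Hoxc5 (15.4%) belong to another gene on the same strand. The sources used here do not give how reads in shared bases were counted, so the levels of Hoxd3 and Hoxc5 are less certain than those of the remaining 7 genes, which share no exon base with another gene of the table.

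The RefSeq promoter table for mm10 held windows for 5 of the 9 genes. The 4 Hoxd windows are printed because the 4 Hoxd genes all fell in Hoxb1-null NMPs; the window of Hoxc4 lies within annotated exons and is not printed. Each shows the plus strand upstream of the first annotated exon, 5′ to 3′, and capitals mark the CCAAT box (CCAAT or, on the other strand, ATTGG).
Hoxd1 (chr2:74762730-74762979): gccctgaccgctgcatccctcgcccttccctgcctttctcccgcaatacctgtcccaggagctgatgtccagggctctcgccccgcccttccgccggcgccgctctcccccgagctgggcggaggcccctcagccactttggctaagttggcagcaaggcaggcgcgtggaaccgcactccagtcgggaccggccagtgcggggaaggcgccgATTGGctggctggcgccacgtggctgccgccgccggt
Hoxd3 (chr2:74711743-74711926): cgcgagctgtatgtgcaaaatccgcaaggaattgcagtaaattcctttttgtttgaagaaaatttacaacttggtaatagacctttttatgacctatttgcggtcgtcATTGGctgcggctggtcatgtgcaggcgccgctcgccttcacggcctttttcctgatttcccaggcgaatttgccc
Hoxd8 (chr2:74704365-74704614): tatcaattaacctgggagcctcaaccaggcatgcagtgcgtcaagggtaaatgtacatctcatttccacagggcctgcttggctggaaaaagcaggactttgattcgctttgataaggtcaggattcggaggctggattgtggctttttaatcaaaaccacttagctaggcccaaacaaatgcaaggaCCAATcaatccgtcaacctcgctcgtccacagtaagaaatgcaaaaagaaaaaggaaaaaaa
Hoxd9 (chr2:74697513-74697679): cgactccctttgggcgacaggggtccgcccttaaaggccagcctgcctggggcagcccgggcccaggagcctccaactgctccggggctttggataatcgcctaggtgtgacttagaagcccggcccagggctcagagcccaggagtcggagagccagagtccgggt

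The 4 stretches differed in base composition. GC content was 71.6% for Hoxd1 and 67.1% for Hoxd9, against 47.3% for Hoxd3 and 44.4% for Hoxd8, and the median over all 32851 promoters of the table was 52.4%. The Hoxd1 stretch held 24 CpG dinucleotides in 250 bases and the Hoxd8 stretch 6 in 250. A search of both strands over the 250 bases upstream of the start found TGATNNAT, a form of the joint Pbx and Hox site, in none of the 5 member windows and in 7.68% of all promoters. TTTATNG, a form of the Cdx site, was likewise in none of the 5 and in 9.81% of all. The CCAAT box, a motif chosen after the sequences had been seen, was in the Hoxd1, Hoxd3 and Hoxd8 windows. It was not in the Hoxd9 or Hoxc4 window, and it was in 33.9% of all promoters. These are matches of letters and not measured sites.

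Total counts were 13301476 to 26974315 per library, and the NPs with SAG were the deepest. Hoxb1 itself followed the labels. It was at 254 ± 16.1 CPM (counts per 1000000 counts of the library, mean ± SD, n = 3) in wild-type NMPs and 15.3 ± 0.844 in Hoxb1-null NMPs, at 323 ± 16.0 in NPs with Hoxb1 and 591 ± 21.2 in those with Hoxb1 and SAG, and under 1 CPM in every NP library labelled as not expressing it. The sums of the marker lists followed the labels as well. The 8 NMP markers summed to 1423 to 1797 CPM over the NMP libraries and 393 to 683 over the NP libraries. For the 8 neural progenitor markers the sums were 514 to 562 and 1637 to 2985 CPM. Not every marker did so. T, at 1185 CPM in wild-type NMPs, made up most of their NMP sum. Sox2, on both lists, had group means of 13.4 and 16.4 CPM in NMPs and 391 to 620 in NPs. The other NMP markers were higher in NMPs. Nes of the neural progenitor list was at 318 and 325 CPM in NMPs and 269 to 312 in NPs. The third Hoxb1-null library stood apart from the other 2 (chi-square per gene 3.93 and 5.07, against 2.33 between those 2 and 1.35 to 3.72 between the pairs of every other group). It held the lowest null value for 7 of the 9 genes. That trait was not its own, as the third wild-type library held the lowest wild-type value for 6 of the 9. The third library of NPs without Hoxb1 or SAG, with Hoxb1 alone and with SAG alone did so for 5 each. CPM here are scaled with TMM factors over all 18 libraries.

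**Figure D1:**
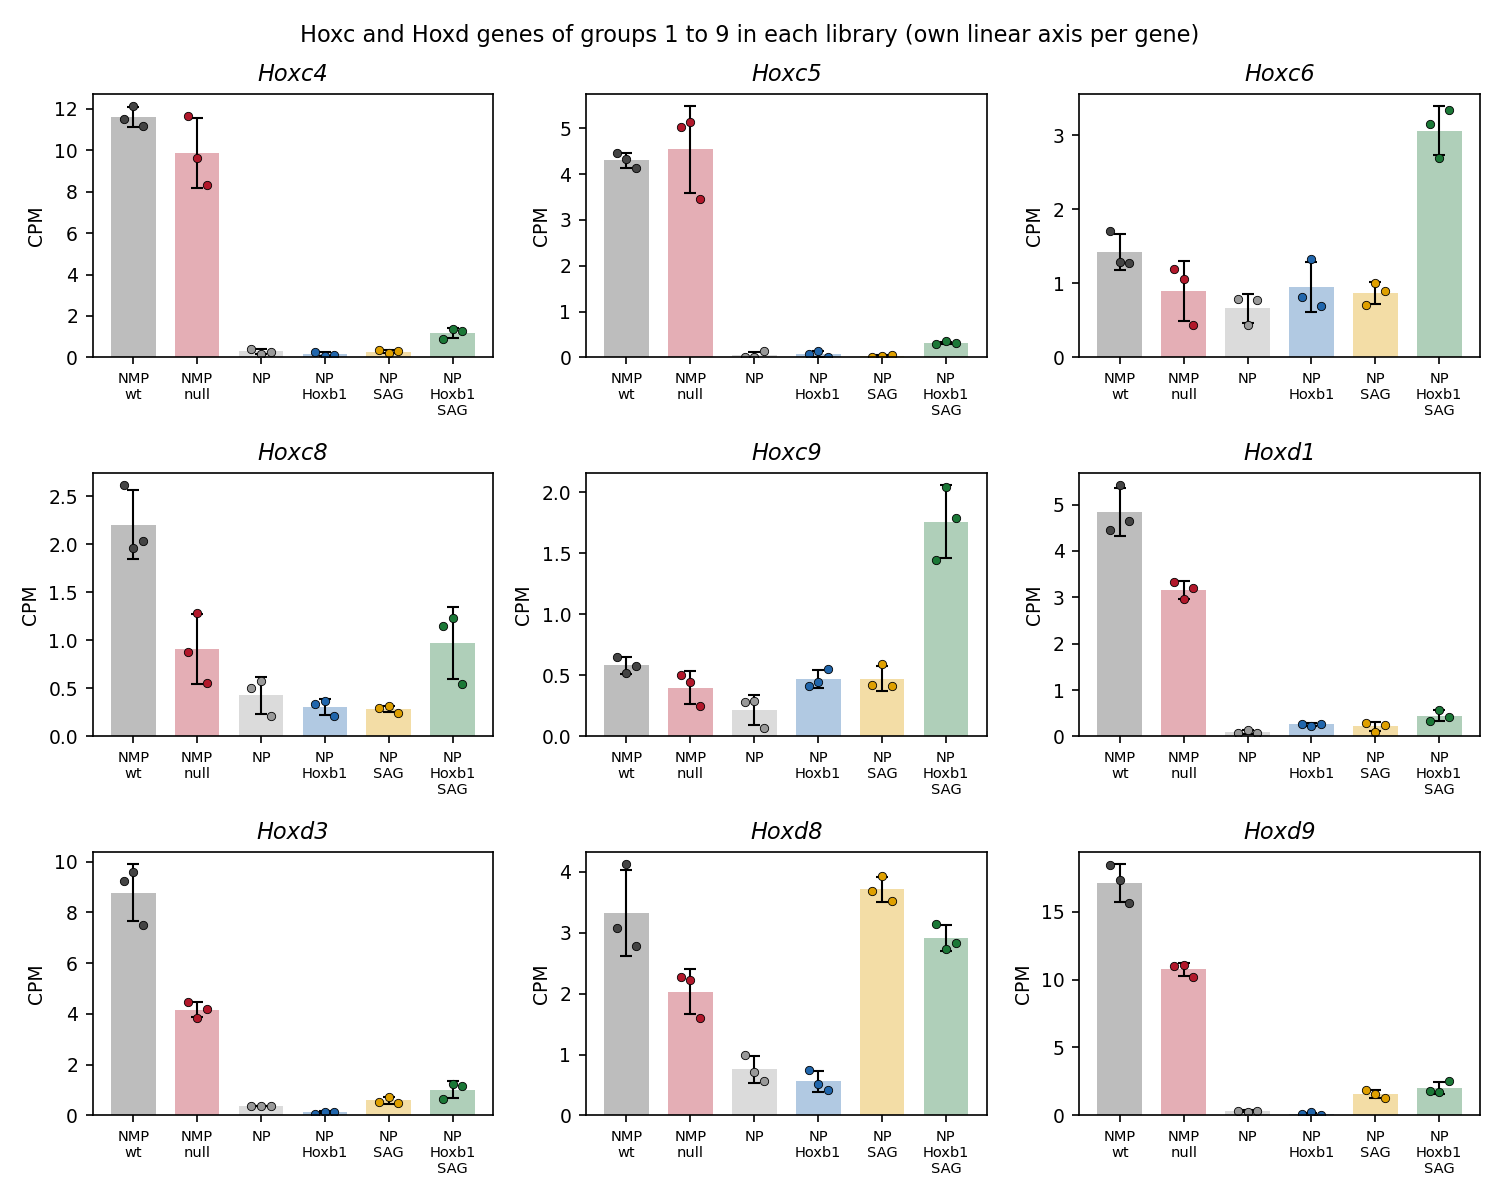
Level of each of the 9 genes (CPM, linear axis of its own per gene) in the 6 groups; points are libraries, bars the mean of 3 and whiskers 1 SD. The genes other than Hoxc6, Hoxc9 and Hoxd8 had their highest means in NMPs, and Hoxc6 and Hoxc9 theirs in NPs with Hoxb1 and SAG.

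In wild-type NMPs all 9 genes were detected, and their levels per length differed widely. Per kb of summed exon, Hoxd9, the group 9 gene of the Hoxd cluster, was highest at 7.84 ± 0.639 CPM per kb, followed by Hoxc4, the most 3′ Hoxc gene, at 4.54 ± 0.193 and Hoxd1, the most 3′ Hoxd gene, at 2.60 ± 0.275. Hoxd3 (1.52), Hoxc5 (1.47) and Hoxd8 (1.21) formed a middle group within their spread of each other. Hoxc8 (0.959), Hoxc6 (0.569) and Hoxc9 (0.240 CPM per kb) were lowest. The order thus differed between the clusters: in the Hoxc cluster the gene of group 4 was the highest and that of group 9 the lowest, whereas in the Hoxd cluster the gene of group 9 was the highest and that of group 8 the lowest.

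The first comparison asked how the genes differ when NMPs lack Hoxb1. Of the 9 genes, 8 had enough counts for the test in NMPs, and 5 of these fell in Hoxb1-null NMPs and none rose (edgeR quasi-likelihood test, adjusted p under 0.05; at an unadjusted p under 0.05, 7 were lower and 0 higher; DESeq2 called the same number, 5 lower and 0 higher). Over all 15032 genes tested, 13.9% fell and 14.9% rose. All 4 Hoxd genes fell, and of the Hoxc genes Hoxc8 fell. Hoxc6 and Hoxc8 passed the filter on low counts only through the wild-type libraries. With no filter all 9 genes were tested, and again 5 fell and none rose; the median log2 change of the 9 was -0.66, against 0.02 over all genes.

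Hoxd3, a regional gene of the hindbrain and neck, had the largest fall among the Hoxd genes. It was at 9.23, 9.60 and 7.49 CPM in the wild-type libraries and at 4.47, 3.85 and 4.19 in the null libraries. Every null library was below every wild-type library. The log2 change was -1.08 (SE 0.131, edgeR adjusted p = 1.66e-06), which is a 2.11-fold fall.

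Hoxd9 was the most abundant member in NMPs and is a trunk and limb patterning gene. It measured 18.4, 17.3 and 15.6 CPM in wild-type libraries and 11.0, 11.1 and 10.2 in null libraries. The groups did not overlap, and the 1.59-fold fall was the most precise of the Hoxd cluster (log2 change -0.67, SE 0.0912, edgeR adjusted p = 7.19e-06).

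Hoxd1, a paralogue of Hoxb1 at the 3′ end of its cluster, was at 4.45, 5.42 and 4.65 CPM in wild-type libraries and 3.34, 2.96 and 3.20 in null libraries. Again the groups did not overlap. Its log2 change was -0.63 (SE 0.149, edgeR adjusted p = 0.00287). Hoxd8, a trunk gene, was at 3.08, 4.13 and 2.79 CPM in wild-type and 2.27, 2.23 and 1.60 in null libraries. These groups did not overlap either, but wild-type replicate 2 was well above the other wild-type libraries. The log2 change of Hoxd8 was -0.72 (SE 0.199, edgeR adjusted p = 0.00842), and without wild-type replicate 2 the adjusted p was 0.101, so this call rests on that library.

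In the Hoxc cluster the changes differed along the cluster. Hoxc8, a brachial gene of motor neuron pools, had the largest estimated fall of the tested members, 2.37-fold. It was at 2.62, 1.96 and 2.03 CPM in wild-type libraries and 0.882, 1.28 and 0.555 in null libraries, with no overlap (log2 change -1.24, SE 0.266, edgeR adjusted p = 0.00111). It passed the filter only through the wild-type libraries. Over the alternatives its log2 change ran from -1.60 to -0.99, which includes the range of Hoxd3 (-1.18 to -1.01). The order of Hoxc8 and Hoxd3 is therefore not settled. Hoxc4 and Hoxc5, which mark the cervical cord, were not called. Hoxc4 was at 11.5, 12.1 and 11.2 CPM in wild-type libraries and at 11.7, 9.65 and 8.32 in null libraries, where the first null library lay among the wild-type ones (log2 change -0.24, SE 0.110, edgeR adjusted p = 0.111). Without null replicate 1, Hoxc4 passed the test at an adjusted p of 0.0156.

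Hoxc5 was at 4.45, 4.34 and 4.12 CPM in wild-type libraries and 5.04, 5.13 and 3.45 in null libraries, on both sides of the wild-type range (log2 change 0.08, SE 0.156, edgeR adjusted p = 0.744). Hoxc6, a brachial gene, was at 1.70, 1.29 and 1.28 CPM in wild-type and 1.20, 1.06 and 0.431 in null libraries. Its groups did not overlap, but the spread between the null libraries was wide and the log2 change of -0.65 (SE 0.303) was not called (edgeR adjusted p = 0.116). Hoxc9, a thoracic gene, had only 10 counts in each wild-type library and 8, 8 and 4 in the null libraries, too few for the test. Without the filter on low counts its log2 change was -0.54 (edgeR adjusted p = 0.477).

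**Figure D2:**
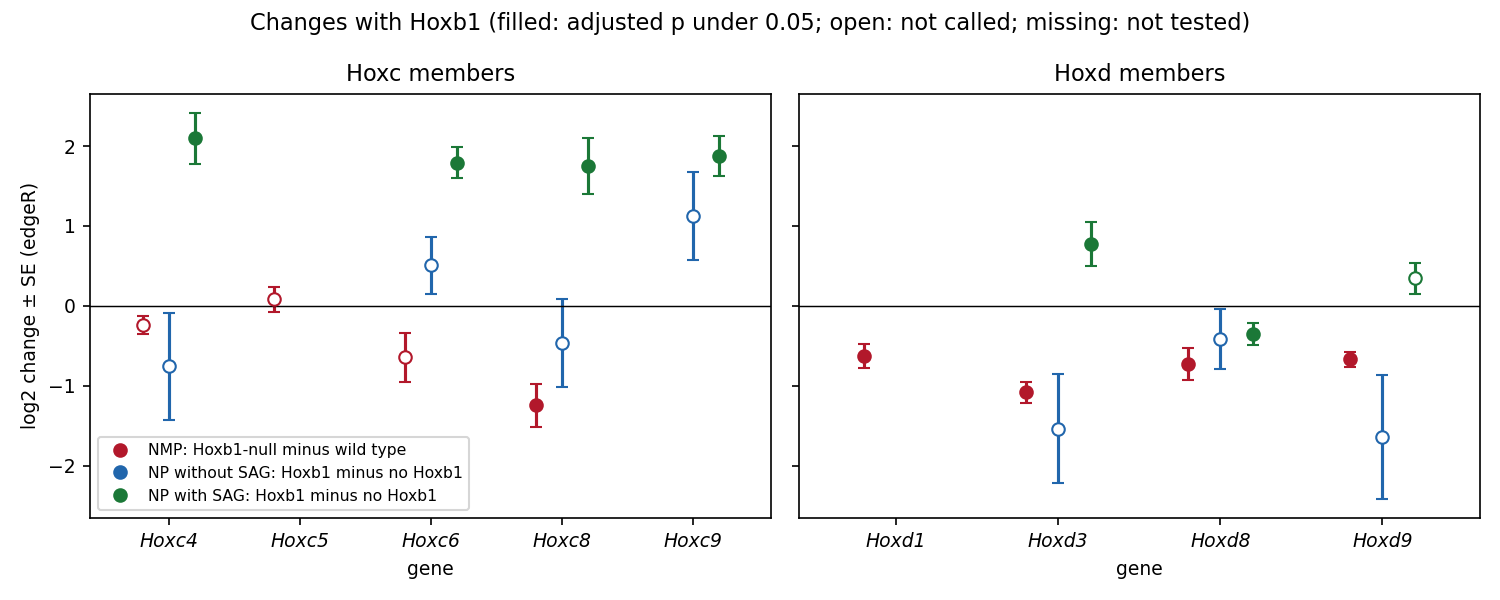
Log2 change with Hoxb1 (y axis, ± SE from edgeR) of the Hoxc genes (left) and Hoxd genes (right), for Hoxb1-null minus wild-type NMPs (red), Hoxb1 minus no Hoxb1 in NPs without SAG (blue) and in NPs with SAG (green). Filled points passed the test, open points did not, and genes with too few counts have none; the 4 tested Hoxc genes lay between 1.75 and 2.10 in NPs with SAG.

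The other genes of the same clusters and of the same groups were read from fixed lists. Of the Hoxc and Hoxd genes of groups 10 to 13, which specify the tail end of the body, 2 of 8 had enough counts in NMPs and both rose in the null: Hoxc13 from 3.00 to 6.53 CPM (log2 change 1.14, edgeR adjusted p = 1.61e-05) and Hoxd13 from 4.43 to 7.21 CPM (0.70, adjusted p = 0.000393). Of the Hoxa and Hoxb genes of groups 1 to 9, Hoxb1 included, 12 of 16 tested fell and none rose, with a median log2 change of -1.12. The neighbouring genes within 500 kb of the Hoxc cluster had 4 of 17 tested higher and 2 lower (median 0.02), and those beside the Hoxd cluster 0 of 5 higher and 2 lower (median -0.14). One of the latter, Haglr, the antisense RNA beside Hoxd1, is named here after its values were seen: it fell from 4.51 to 2.31 CPM (log2 change -0.96, edgeR adjusted p = 0.00017).

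**Figure D3:**
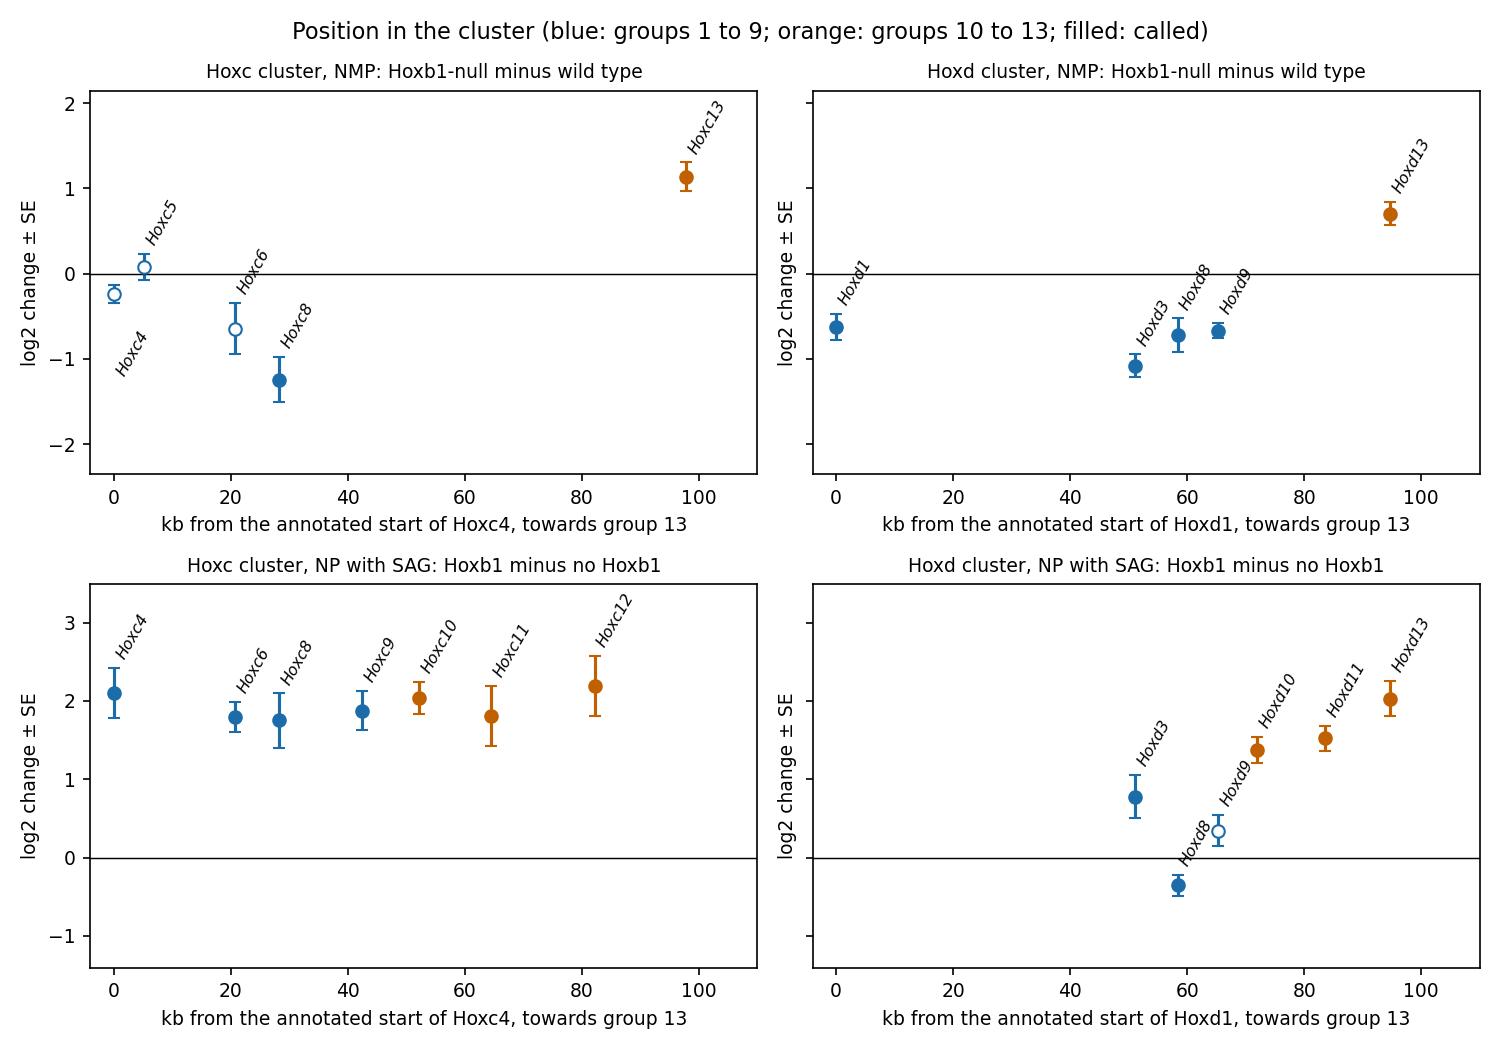
Log2 change (y axis, ± SE from edgeR) of the tested genes of the Hoxc (left) and Hoxd (right) clusters against the distance of their annotated start, in kb, from that of Hoxc4 or Hoxd1. The upper panels show Hoxb1-null minus wild-type NMPs, with Hoxc13 at 1.14 and Hoxd13 at 0.70 above the line, and the lower panels Hoxb1 minus no Hoxb1 in NPs with SAG, where Hoxd8 at -0.35 was the only point below it.

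Of the upstream regulators of Hox clusters on the caudal list, 9 of 10 fell in Hoxb1-null NMPs and 1 rose (Fgf4). Among them were Cdx2, a caudal homeobox gene that acts on Hox clusters, from 103 to 75.2 CPM (log2 change -0.46, edgeR adjusted p = 7.1e-05), Cdx4 from 19.5 to 11.3 CPM (-0.79, adjusted p = 0.000268) and Fgf8 from 71.3 to 29.8 CPM (-1.26, adjusted p = 0.00187). The retinoid list had 3 of 10 tested genes lower and 1 higher, the Pbx and Meis cofactor list 3 of 9 lower and 1 higher, and the Polycomb list 2 of 12 lower and 1 higher. Markers of other cells moved too. The 7 lateral and intermediate mesoderm markers summed to 60.5 to 63.5 CPM in wild-type and 89.0 to 107 CPM in null libraries. The 6 pluripotency markers summed to 413 to 439 and 549 to 602. The 6 paraxial mesoderm markers summed to 542 to 600 and 461 to 468, with 2 of 5 tested lower and 2 higher. The 8 NMP markers summed to 1613 to 1797 and 1423 to 1507, with 7 of these 8 lower and 1 higher. Cdx1, Cdx2, Fgf8, Fgf17, Wnt3a and T are also on the caudal list, so their falls count in both lists. The part of these regulators and cells in the falls of the Hox genes was not tested. In bulk RNA, fewer cells that express a gene and less RNA per cell cannot be told apart.

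In NPs without Hoxb1 or SAG the 9 genes were near the detection limit, with 133 counts in all over the 3 libraries against 2811 in wild-type NMPs. Hoxd8 was the highest per length at 0.277 CPM per kb and Hoxc5 the lowest at 0.0160. Hoxc4, Hoxc5, Hoxd1, Hoxd3 and Hoxd9 had 0 to 6 counts per library. NPs with and without Hoxb1 overlapped for Hoxc4, Hoxc5, Hoxc6, Hoxc8, Hoxd8 and Hoxd9.

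The next comparison asked what Hoxb1 does to the genes in NPs without SAG. None of the 7 genes tested was called by edgeR, where 46.2% of all 16238 genes tested were called in either direction. Hoxc4, Hoxc8, Hoxc9 and Hoxd3 had passed the filter on low counts only through the libraries with Hoxb1 and SAG. Hoxd9 had passed it only through libraries with SAG. At an unadjusted p under 0.05, 1 of the 7 was higher (Hoxc9) and 2 were lower (Hoxd3 and Hoxd9), and DESeq2 called 0. With no filter 0 of 9 were called, and the median log2 change of the 9 was -0.41, against 0.00 over all genes. At these levels only large differences were detectable, as the standard errors of 0.358 to 0.773 show.

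Hoxd3 had 5, 5 and 5 counts without Hoxb1 and 1, 2 and 2 with it, and the groups did not overlap. The ratio of the depth-scaled counts was 0.330 (95% exact binomial interval 0.0939 to 0.956, counting error only), and the log2 change of -1.54 (SE 0.681) had an edgeR adjusted p of 0.0614. Hoxd9 had 5, 3 and 5 counts without and 1, 3 and 0 with Hoxb1, which overlapped at 3 (log2 change -1.64, SE 0.773, edgeR adjusted p = 0.0796). Hoxc9 went the other way, with 4, 4 and 1 counts without and 6, 6 and 8 with Hoxb1 and no overlap (log2 change 1.12, SE 0.548, edgeR adjusted p = 0.0902). Hoxc6, at 28 counts without and 40 with Hoxb1 over the group, had overlapping libraries (log2 change 0.51, SE 0.358). Hoxc4, Hoxc8 and Hoxd8 overlapped too, with log2 changes of -0.76, -0.47 and -0.41. Leaving out 1 library made a call for Hoxd3 (without the first NP library with Hoxb1 and SAG, adjusted p = 0.0497) and for Hoxd9 (without the second NP library with Hoxb1, log2 change -2.95, adjusted p = 0.0242).

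The Hoxa and Hoxb genes of groups 1 to 9 had 6 of 13 tested genes higher and 1 lower in the same comparison. Hoxb1, the gene induced, counts among the 6 by design. The difference between the lists was not tested. The Hoxc and Hoxd genes of groups 10 to 13 had 0 of 6 called. The retinoid list had 6 of 11 genes higher and 1 lower, among them Rara, a retinoic acid receptor, from 50.1 to 169 CPM (log2 change 1.76, edgeR adjusted p = 3.39e-32). The cofactor list had 6 of 9 higher and 2 lower, with Meis1 at 80.8 CPM without and 218 with Hoxb1 (log2 change 1.44, adjusted p = 1.18e-30). The caudal list had 5 of 8 tested genes lower and 2 higher. Of these, Cdx2 fell from 0.853 to 0.115 CPM (log2 change -2.79, edgeR adjusted p = 0.000218). Gdf11 rose from 68.2 to 96.7 CPM (log2 change 0.51, edgeR adjusted p = 4.6e-13).

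With SAG the same comparison gave calls for most of the genes. Of the 7 genes tested, 5 rose with Hoxb1 and 1 fell (edgeR), against 21.4% of all 16238 genes higher and 21.9% lower. Hoxc4, Hoxc8, Hoxc9 and Hoxd3 passed the filter on low counts only through the libraries with Hoxb1 and SAG, so the counts of genes that rose describe the genes tested and support nothing about the 9. With no filter all 9 genes were tested, of which 6 rose and 0 fell, with a median log2 change of 1.75 against 0.00 over all genes. Hoxc4, Hoxc6, Hoxc8 and Hoxc9 rose by 3.37-fold to 4.28-fold. Of the Hoxd genes, Hoxd3 rose by 1.72-fold, Hoxd9 was not called and Hoxd8 fell by 1.28-fold. Levels of all 9 genes stayed under 4 CPM in these NPs.

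Hoxc6 was the highest Hoxc gene in these cells and reached a level above that in NMPs. It was at 0.711, 1.01 and 0.902 CPM with SAG alone and at 3.15, 2.70 and 3.35 with Hoxb1 and SAG. All libraries with Hoxb1 and SAG lay above all libraries with SAG alone, and also above every NMP library (1.28 to 1.70 CPM in wild type). The log2 change was 1.79 (SE 0.196, edgeR adjusted p = 4.03e-10).

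Hoxc9 followed the same pattern at a lower level, with 0.418, 0.591 and 0.410 CPM under SAG alone and 1.45, 2.04 and 1.79 with Hoxb1 and SAG. Its libraries with both lay above every other library of the series (log2 change 1.87, SE 0.251, edgeR adjusted p = 5.11e-08). Hoxc4 was at 0.335, 0.209 and 0.287 CPM with SAG alone and 0.894, 1.35 and 1.28 with Hoxb1 and SAG. The groups did not overlap, and the 4.28-fold rise was the largest of the tested members (log2 change 2.10, SE 0.318, edgeR adjusted p = 6.57e-07), yet the level remained far below the 11.2 to 12.1 CPM of wild-type NMPs.

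Hoxc8 was at 0.293, 0.313 and 0.246 CPM with SAG alone and at 1.15, 1.23 and 0.545 with Hoxb1 and SAG. The third library with both was below the other 2 but still above all libraries with SAG alone. It was not above NP replicate 2, without Hoxb1 or SAG, at 0.574 CPM. The log2 change of Hoxc8 was 1.75 (SE 0.346, edgeR adjusted p = 5.95e-05). Hoxc5 had too few counts for the test, 0, 1 and 1 without and 7, 9 and 8 with Hoxb1, and the groups did not overlap. The ratio of 24 to 2 counts, scaled for depth, was 12.3 (95% exact binomial interval 3.06 to 107, counting error only). With no filter on low counts its log2 change was 3.34 (edgeR adjusted p = 0.000182).

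The Hoxd genes were less uniform. Hoxd3 was at 0.544, 0.731 and 0.492 CPM with SAG alone and 0.638, 1.23 and 1.17 with Hoxb1 and SAG, so that the first library with Hoxb1 lay within the range without it (log2 change 0.78, SE 0.274, edgeR adjusted p = 0.0193). DESeq2 did not call it (adjusted p = 0.149), nor did edgeR without replicate 1 or 3 of SAG alone (0.0620 and 0.0845) or without replicate 2 or 3 of Hoxb1 and SAG (0.125 and 0.0958). Hoxd8 was at 3.68, 3.93 and 3.53 CPM with SAG alone and 3.15, 2.74 and 2.84 with Hoxb1 and SAG, lower in every library (log2 change -0.35, SE 0.136, edgeR adjusted p = 0.0334), but DESeq2 did not call it (adjusted p = 0.187), nor did edgeR with no filter (0.0510) or without replicate 1 or 2 of SAG alone (0.0536 and 0.113) or without replicate 2 or 3 of Hoxb1 and SAG (0.106 and 0.0861). Hoxd9 was at 1.88, 1.60 and 1.31 CPM with SAG alone and 1.79, 1.74 and 2.53 with Hoxb1 and SAG, overlapping ranges with no call (log2 change 0.35, SE 0.197, edgeR adjusted p = 0.158). Hoxd1, under the filter, had 7, 3 and 6 counts without and 8, 15 and 11 with Hoxb1, which did not overlap once scaled for depth (ratio 2.18, 95% exact binomial interval 1.17 to 4.23, counting error only). With no filter its log2 change was 1.10 (SE 0.454) and was not called (edgeR adjusted p = 0.0534). Of the 8 alternatives that tested Hoxd1, 7 called it higher, with edgeR adjusted p of 0.0255 to 0.0534 over the 8.

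Markers of other cells differed between the same groups. The 6 motor neuron markers summed to 23.1 to 25.7 CPM with SAG alone and 168 to 170 with Hoxb1 and SAG, against 16.3 to 19.5 and 44.9 to 48.7 in the NPs without SAG. The 7 mesenchyme markers summed to 2150 to 2186 CPM with SAG alone and 2145 to 2350 with Hoxb1 and SAG, and to 444 to 473 and 950 to 983 without SAG. The 8 neural progenitor markers summed to 2068 to 2149 and 1637 to 1687 CPM with SAG. The part of these cells in the rise of the Hoxc genes was not tested. Of the Hoxc and Hoxd genes of groups 10 to 13, 6 of 6 tested rose with Hoxb1 under SAG, from Hoxd10 (log2 change 1.37) to Hoxc12 (2.19). Hoxc11, Hoxc12 and Hoxd13 passed the filter only through the libraries with Hoxb1 and SAG, and Hoxc13 and Hoxd12 of the same list did not pass; Hoxd12 was at 0.374 CPM with SAG alone and 0.360 with Hoxb1 and SAG. Of the Hoxa and Hoxb genes of groups 1 to 9, 11 of 13 tested rose, with the induced Hoxb1 counted among the 11 by design. In the flanks, 5 of 18 tested genes beside the Hoxc cluster were higher and 1 lower (median log2 change 0.05). Beside the Hoxd cluster 4 of 5 were higher and 0 lower, by small amounts (median 0.26).

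The difference between the Hoxb1 effect with SAG and that without was tested directly. It was called higher for 5 of the 7 genes tested, against 16.8% of all genes, and for 4 of 9 with no filter. The filter that let Hoxc4, Hoxc8, Hoxc9 and Hoxd3 through only by their libraries with Hoxb1 and SAG applies here too. DESeq2 called Hoxc6 alone and gave no adjusted p for Hoxc4, Hoxc8 and Hoxd3. It was largest for Hoxc4, at 2.86 on the log2 scale (SE 0.755, edgeR adjusted p = 0.00247), followed by Hoxd3 at 2.32 (SE 0.731, adjusted p = 0.0112) and Hoxc8 at 2.22 (SE 0.660, adjusted p = 0.00721). Hoxd9 at 1.99 (SE 0.795, adjusted p = 0.0479) and Hoxc6 at 1.29 (SE 0.427, adjusted p = 0.0161) were called as well. The call of Hoxd9 was lost when any 1 of 7 libraries was left out (adjusted p 0.0527 to 0.183), with DESeq2 (0.0745), with no filter (0.05001) and with the replicate number as a block (0.0525). Without the second NP library with Hoxb1 the difference was 3.29 for Hoxd9, and without the first it was 3.45 for Hoxc4. The call of Hoxc6 was lost without NP replicate 1 (0.0701), NP replicate 3 (0.0708) or the third NP library with Hoxb1 (0.0528). For Hoxc4, Hoxc8, Hoxd3 and Hoxd9 the Hoxb1 effect without SAG was negative and not called, and each rested on few counts. Hoxc9 (0.75, SE 0.665, adjusted p = 0.413) and Hoxd8 (0.06, SE 0.380, adjusted p = 0.922) were not called. Hoxb1 itself was 1.83-fold higher in the NPs with Hoxb1 and SAG than in those with Hoxb1 alone (log2 change 0.87, edgeR adjusted p = 2.11e-19), so the groups compared differ in the dose of Hoxb1 RNA and in library set as well as in SAG.

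The last comparisons asked what SAG does. Without Hoxb1, 3 of the 7 tested genes rose with SAG (edgeR), against 36.5% of all genes higher, and 3 of 9 with no filter. Hoxd9 passed the filter only through libraries with SAG. Hoxd8 rose from 0.998, 0.718 and 0.561 CPM to 3.68, 3.93 and 3.53, a level as high as in wild-type NMPs, whose range it overlapped (log2 change 2.29, SE 0.220, edgeR adjusted p = 3.37e-12). Hoxd9 rose from 0.356, 0.215 and 0.350 CPM to 1.88, 1.60 and 1.31 (log2 change 2.35, SE 0.365, adjusted p = 3.09e-07). For both genes every library with SAG lay above every library without it. Hoxc9 rose from 0.285, 0.287 and 0.0701 CPM to 0.418, 0.591 and 0.410 (log2 change 1.15, SE 0.490, adjusted p = 0.0341), a call that DESeq2 did not make (adjusted p = 0.0760) and that was lost without the third NP library (0.210) or the second with SAG (0.125). Hoxc4, Hoxc6, Hoxc8 and Hoxd3 were not called, with log2 changes of -0.06, 0.41, -0.57 and 0.74.

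In NPs with Hoxb1, 7 of 7 tested genes rose with SAG, against 36.4% of all genes higher. Since Hoxc4, Hoxc8, Hoxc9 and Hoxd3 passed the filter only through the libraries with Hoxb1 and SAG, and Hoxd9 only through libraries with SAG, this count supports nothing about the 9 genes. With no filter 8 of 9 rose: Hoxc5 had a log2 change of 2.10 (edgeR adjusted p = 0.0183) and Hoxd1, at 0.81, was not called (0.200). The largest rise was that of Hoxd9, from 0.0682, 0.222 and 0 CPM to 1.79, 1.74 and 2.53 (ratio of 152 to 4 counts scaled for depth 21.6, 95% exact binomial interval 8.25 to 80.1, counting error only). Its log2 change in the fit was 4.34, and 5.64 without the second NP library with Hoxb1, over a range of 3.77 to 5.64 under all alternatives. Without the first NP library with Hoxb1 the log2 change of Hoxc4 was 3.39. Hoxd3 followed with a log2 change of 3.06 (SE 0.487, edgeR adjusted p = 5.50e-07) and Hoxc4 with 2.80 (SE 0.436, adjusted p = 3.52e-07). The smallest was that of Hoxc8, at 1.65 (SE 0.411, adjusted p = 0.000484). Markers of other cells moved with SAG as well. Of the 7 mesenchyme markers, 6 rose without Hoxb1 and 6 rose with it, and of the 5 tested markers of lateral and intermediate mesoderm 4 rose in each case, while their sums without Hoxb1 overlapped (9.60 to 11.7 CPM without and 10.2 to 11.9 with SAG) and with Hoxb1 were 4.70 to 6.82 and 16.1 to 17.8. All 7 neuron markers fell without Hoxb1, from sums of 1464 to 1530 CPM to 870 to 897, and 6 of 7 fell with it, from 2100 to 2227 CPM to 1260 to 1313. Of the Hoxc and Hoxd genes of groups 10 to 13, 5 of 6 tested rose with SAG without Hoxb1 and 6 of 6 with it, under the same limit of the filter. The part of these cells in the rises of the Hox genes was not tested. Neither SAG comparison is separated from the library set, and the libraries with SAG were also deeper (22610407 to 26974315 counts, against 13301476 to 14505711).

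**Figure D4:**
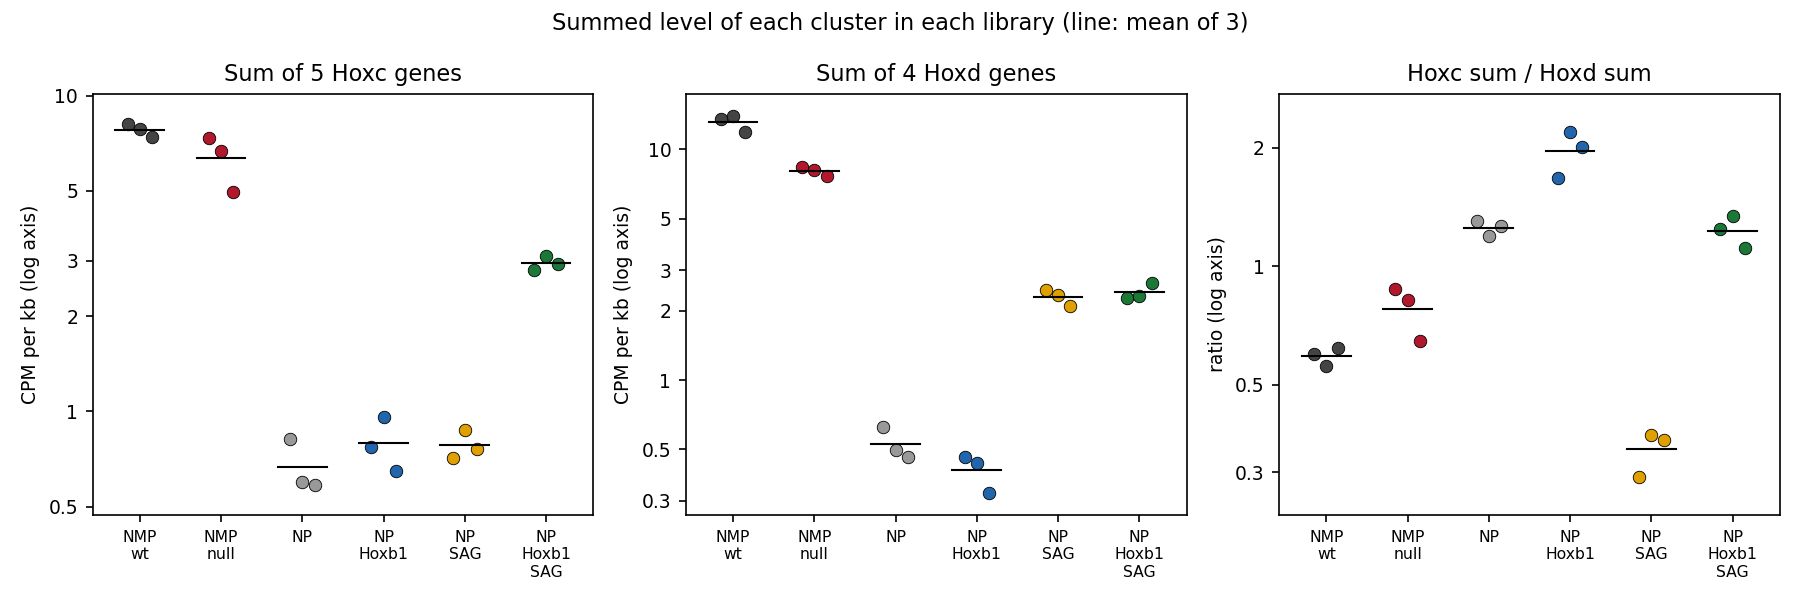
Summed level of the 5 Hoxc genes, of the 4 Hoxd genes (CPM per kb, log axis) and the ratio of the Hoxc to the Hoxd sum (log axis) in each library, with a line at the mean of 3. The ratio was lowest in NPs with SAG alone, at 0.291 to 0.373, and highest in NPs with Hoxb1 alone, at 1.67 to 2.20. The latter rests on 127 counts over the 3 libraries.

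The balance between the clusters changed across the groups. Per kb, the 5 Hoxc genes summed to 7.78 ± 0.357 CPM per kb in wild-type NMPs and 6.33 ± 1.24 in null NMPs, with ranges of 7.41 to 8.12 and 4.95 to 7.35 that did not overlap. The 4 Hoxd genes summed to 13.2 ± 1.06 and 8.08 ± 0.370. The ratio of the Hoxc to the Hoxd sum was 0.558 to 0.619 in the wild-type and 0.644 to 0.874 in the null libraries. In NPs the Hoxc sum was 0.666 ± 0.129 without Hoxb1 or SAG, 0.793 ± 0.155 with Hoxb1 and 0.784 ± 0.0831 with SAG, 3 values within their spread, and 2.94 ± 0.151 with both. The Hoxd sum went with SAG instead, at 0.530 ± 0.0860 and 0.407 ± 0.0739 without SAG and 2.30 ± 0.179 and 2.40 ± 0.197 with it. In these sums Hoxd8 and Hoxd9 made up most of the Hoxd part in NPs with SAG (1.35 and 0.732 CPM per kb with SAG alone). In wild-type NMPs Hoxc4 (4.54 CPM per kb) made up most of the Hoxc sum and Hoxd9 (7.84) most of the Hoxd sum. The sums and ratios in NPs without SAG rest on few counts. All members together had 133 counts per group without Hoxb1 and 127 with it. These sums are descriptions and carry no test.

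Over the 6 groups the order of levels differed between the genes. Hoxd1, Hoxd3 and Hoxd9 ran from wild-type NMPs through null NMPs to NPs with Hoxb1 and SAG, with no overlap between the first 3 groups. Hoxc4 had the same order of groups but its NMP groups overlapped, and Hoxc5 had overlapping NMP groups above NPs with Hoxb1 and SAG. For Hoxc8 wild-type NMPs stood alone at the top, while null NMPs overlapped with NPs given Hoxb1 and SAG. Hoxc6 and Hoxc9 were highest in NPs with Hoxb1 and SAG, and the other 5 groups overlapped with their neighbours in the order. Hoxd8 was highest in NPs with SAG alone (3.71 ± 0.204 CPM), overlapping with wild-type NMPs (3.33 ± 0.706), which overlapped with NPs with Hoxb1 and SAG (2.91 ± 0.213).

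For the 3 members above 5 CPM in a group, the genes with the most similar log2 CPM over the 18 libraries were taken from 12173 candidates other than Hox genes. For Hoxc4 these were Hmgb1 (r = 0.993), Hnrnph1 (0.992) and Ppid (0.992), for Hoxd3 Snrnp70 (0.985), Furin (0.985) and Wnt5b (0.984), and for Hoxd9 Ybx1 (0.992), Ajuba (0.990) and Hdac1 (0.990). All 9 were higher in NMPs than in NPs, as the Hox genes were. The libraries fall into an NMP and an NP cluster with library sets of their own, so these values describe mainly that contrast.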

How the data were processed

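Polyadenylated RNA of 18 libraries was sequenced after strand-specific preparation with 15 PCR cycles, per the labels' protocols. Per the submitters' processing notes, bcl2fastq 1.8.2 and featureCounts 1.4.6 were used with mm10. The authors deposited raw counts per gene, not normalized, with another column, the summed exon length, used here for levels per kb. Aligner, annotation release, strand setting and treatment of reads with several positions: not given in the sources used here. Of 37224 genes, 35449 had a symbol for their identifier.

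Counts were fitted in R 4.3.3 with edgeR 4.0.16: filterByExpr by group (minimum count 10, minimum total 15), TMM factors, robust glmQLFit, and quasi-likelihood F-tests with Benjamini-Hochberg adjustment over all genes tested, with 0.05 as the threshold. NMP libraries (6, with 15032 genes, a coefficient of biological variation of 3.82% and 4 residual degrees) and NP libraries (12, with 16238 genes, 2.91% and 8 degrees) were fitted apart, with 1 mean per group and 6 comparisons. SEs of log2 changes were taken from the change and its F statistic (change over root F). Levels are CPM scaled by TMM factors over all 18 libraries. DESeq2 1.42.0, upper-quartile scaling, no filter, a stricter filter (1 CPM in 3 libraries), 1 fit of all 18 libraries, a replicate block and leaving out each library were the alternatives.

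The 9 genes were named in every comparison whatever their value, with Hoxb1, list genes beside a count, and the 3 most similar genes (Pearson correlation of log2 CPM with 0.5 CPM added) of members at 5 CPM or more. The members and lists were chosen with earlier results of these data known. Intervals are Clopper-Pearson at 95%, and reads carry no molecular identifiers. Tested on simulated data, the fit recovered 82% of genes changed 1.5-fold and 97% of those changed 3-fold among 14882 genes in the NMP comparison. In the Hoxb1 comparison with SAG it recovered 88% and 97% among 16006. Of the calls, 5.29% and 5.61% were false. The changed genes were drawn from all genes of the fit, with a spread set below the 3.82% fitted in NMPs. These rates therefore do not give the recovery at the low counts of the 9 genes. The genes whose exons overlap those of Hoxd3 or Hoxc5 are not analysed here on their own.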

Additional observations from a re-analysis of the deposited data

Results flagged for a closer look

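For 5 of the 7 genes tested (of 9) the Hoxb1 effect in NPs with SAG differed from that in NPs without SAG by the test of the difference itself (edgeR, adjusted p under 0.05, log2 scale); 16.8% of all genes tested were called in the same direction. The difference was 2.86 for Hoxc4, 2.32 for Hoxd3, 2.22 for Hoxc8, 1.99 for Hoxd9 and 1.29 for Hoxc6. DESeq2 called Hoxc6 and gave no adjusted p for Hoxc4, Hoxc8 and Hoxd3. The call of Hoxd9 held in 8 of the 18 alternatives to the main analysis. Hoxc4, Hoxc8 and Hoxd3 passed the filter on low counts only through the libraries with Hoxb1 and SAG, and Hoxd9 only through libraries with SAG. SAG and library set cannot be told apart in it, and the effects without SAG rest on 4 to 40 counts per group of 3 libraries.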

How the results depend on the processing

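Over 717 values of single genes under the alternatives, 686 kept their side of the threshold, 28 lost and 3 gained a call. Of the 686, 5 uncalled values changed sign, and no called value did. In NMPs, 5 genes fell in every alternative that keeps all libraries, and 4 to 6 when 1 library was left out. For Hoxb1 with SAG, 5 genes rose in the main analysis and 2 under the stricter filter, which tests fewer of them, 4 with DESeq2, and 2 to 7 over all alternatives that keep all libraries, with 3 to 6 when 1 library was left out (3 without the second library with Hoxb1 and SAG). The 1 fall (Hoxd8) became 0 with DESeq2 and with no filter, and 0 to 1 when 1 library was left out. For Hoxb1 without SAG, falls numbered 0 to 1 when 1 library was left out. The difference of effects was called higher for 5 genes, for 1 with DESeq2, which gave no adjusted p for 3 (Hoxc4, Hoxc8 and Hoxd3), for 2 under the stricter filter, and for 3 to 5 when 1 library was left out (3 without NP replicate 1, NP replicate 3 or the third NP library with Hoxb1). For SAG with Hoxb1, 7 rises became 4 under the stricter filter and 8 with no filter.

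Same-numbered libraries did not deviate together in every pair of groups (correlations -0.0738 to 0.233), so the numbers were not taken to pair the samples. With the replicate block, 2181 genes were higher and 2047 lower in Hoxb1-null NMPs, against 2244 and 2083, and among the 9 genes the Hoxd9 difference of effects lost its call (adjusted p = 0.0525). It also did with DESeq2 (0.0745). The best match of each library of NPs with SAG was its own number among those with Hoxb1 and SAG, in 3 of 3.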
